A study of Mus musculus with 4 samples.

Results

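The genes that copy DNA were compared between livers of WT mice and of Tm7sf2-KO mice. Tm7sf2 encodes an enzyme of the endoplasmic reticulum that reduces a sterol on the way to cholesterol. A list of 43 genes was taken, from the origin recognition complex to the enzymes that copy chromatin marks behind the fork, and each was looked up under its gene name in the deposited table. In all, 40 of the 43 were found, among 19504 named genes, and they were read by 80 probe sets, a probe set being a group of short oligonucleotides against 1 transcript region. Pcna, Rfc5 and Chaf1a are not analysed here. Each gene was followed at its brightest probe set, the one with the highest mean over the arrays.

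The samples were 2 WT and 2 Tm7sf2-KO arrays of total liver RNA, hybridized to Affymetrix MOE430 v2 arrays. All mice were males aged 6 weeks, and the KO, homozygous and not limited to liver, was on the C57Bl/6 background of the WT after backcrossing. The labels speak of duplicates without saying whether these were separate animals, so the p-values reflect array-to-array spread that could be technical. Values are log2 levels, quantile normalized by the authors, and each change is KO minus WT on that log2 scale, fitted with limma over 45037 probe sets. A gene was called when its Benjamini-Hochberg adjusted p was under 0.05 and its change at least 0.5 on the log2 scale, which is 1.41-fold. The words rose and fell are kept for such genes. An adjusted p under 0.05 without the fold threshold is called 5% FDR alone. Arrays of whole tissue cannot tell fewer cells of a type from less RNA per cell.

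The arrays followed their labels where this could be checked. At 1 probe set Tm7sf2 read 10.25 and 10.27 in WT against 7.47 and 7.55 in KO (change -2.75, SE 0.08, limma adjusted p = 1.65e-06), while its other probe set read 7.46 to 7.54 on all arrays. The 10 hepatocyte markers measured, among them Alb and Apob, averaged 13.6 on each array. Arrays of 1 genotype correlated at 0.994 across probe sets and arrays of different genotypes at 0.99 to 0.991. Control transcripts added to each sample read 0.38 higher in KO, so that centring the arrays on them moves the median of all named genes from 0.01 to -0.38. Every change below is relative to the bulk of genes.

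DNA replication begins where the origin recognition complex marks an origin and, with Cdc6 and Cdt1, loads the ring of Mcm2 to Mcm7, the helicase that unwinds DNA. Cdc45 and the GINS complex switch that ring on, primase and the polymerases copy the strands, and the clamp with its loader holds them in place. Adult hepatocytes rarely divide, and the genes of this machinery are known for low expression in resting liver and strong induction when the liver regenerates.

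No replication gene passed both thresholds in either direction, and 13 of 40 had an unadjusted p under 0.05 in limma. Over all named genes 0.487% were called lower and 0.543% higher at both thresholds. Mcm10 alone passed 5% FDR, on the lower side, a rule that 0.831% of all named genes met on that side and 0.923% on the other. Of the 13, 9 were lower and 4 higher in KO, against 6.79% and 8.39% of all named genes, and 7.40% and 8.38% of the 6767 named genes at the level of the middle 80% of the replication genes. The mean was lower in KO for 27 of 40 genes and higher for 13 (47.6% and 52.4% of all named genes), and the median change was -0.06 where that of all named genes was 0.01. Both KO arrays lay below both WT arrays for 17 genes and above for 8, against 19.9% and 24.0% of all named genes and 20.7% and 22.8% of those at like levels, and in 15 the genotypes overlapped. In 21 of 40 the gap between replicates was wider than the difference between genotypes, against 66.8% of all named genes.

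Setting aside the helicase ring, the role group with the lowest median, has to leave a smaller lean. Without Mcm2 to Mcm7 the median of the other 34 genes was -0.04, with 21 lower (47.6% of all named genes). The genotypes were apart downwards in 11 and upwards in 8, against 19.9% and 24.0% of all named genes. The intervals of the changes reflect the spread between arrays, which could be technical, and so do not bound a difference between mice. For 34 of 40 genes the 95% confidence interval of the change stayed inside 0.5 in both directions. The 6 whose interval reached a fall of 0.5 were Mcm10, Mcm2, Mcm5, Mcm6, Dnmt1 and Orc1, and no interval reached a rise of 0.5. The mean level was at or above the median of all probe sets (6.66) for 38 of the 40 genes, with Cdc6 and Uhrf1 below it. Such a level does not show that a transcript was detected. The median level of the replication genes was 7.26, while the Tm7sf2 probe set that lost signal still read 7.47 and 7.55 in KO. In the plot of changes by role the helicase subunits stand together on the left and most other genes straddle 0.

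**Figure D1:**
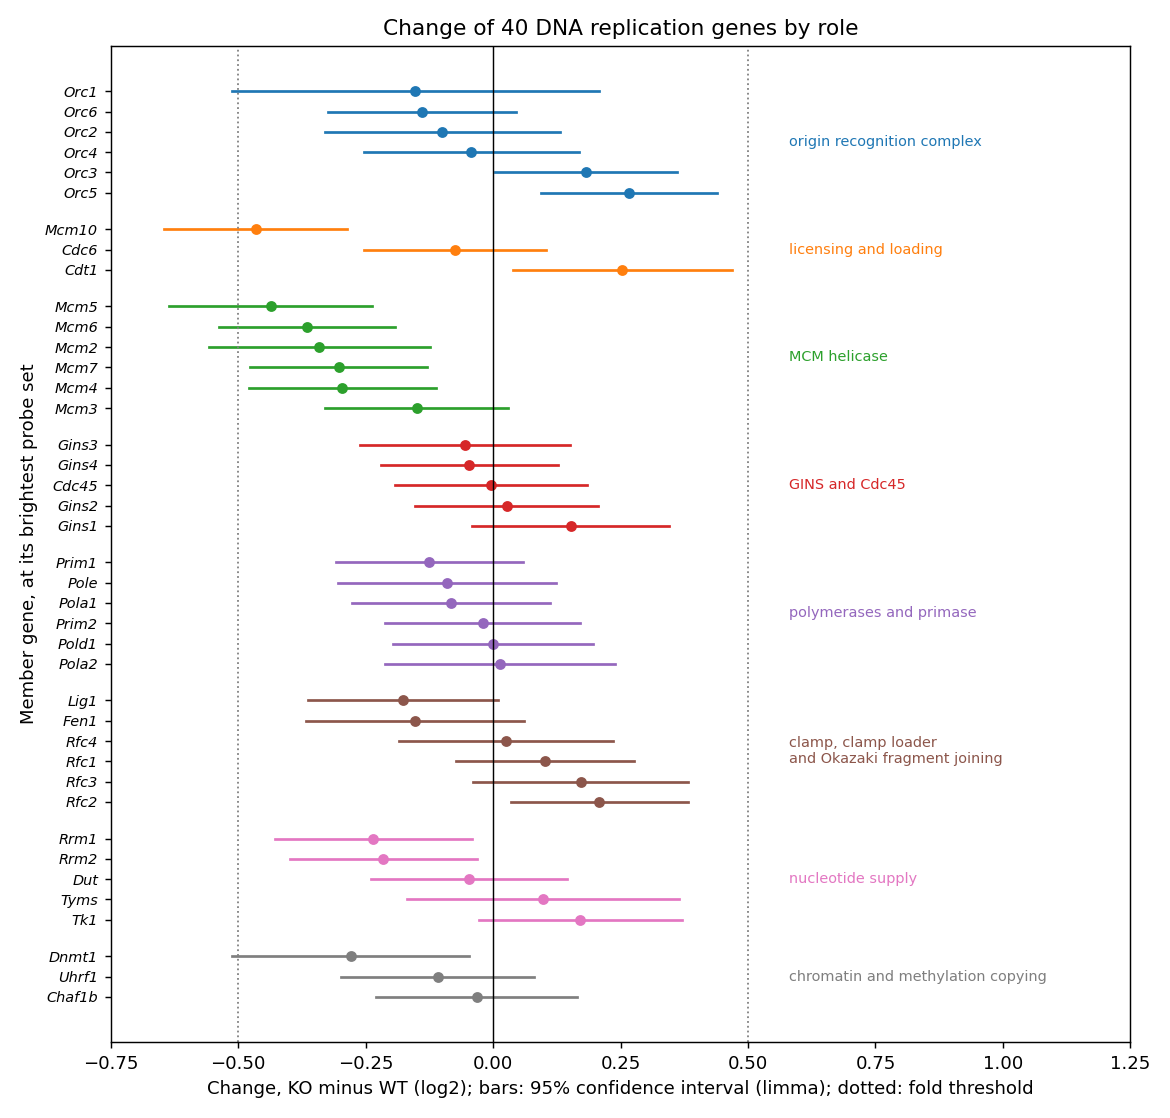
Change of each of the 40 replication genes (x axis, KO minus WT, log2) with its 95% confidence interval from limma, grouped by role (colours and names at right); dotted lines mark the fold threshold of 0.5. All 6 subunits from Mcm2 to Mcm7 lie below 0, between -0.15 and -0.44, while the GINS genes and Cdc45 lie between -0.05 and 0.15.

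The 6 subunits of the helicase ring read lower in KO on both arrays, without a subunit past 5% FDR. Their changes ran from -0.15 to -0.44 with a median of -0.32, and 5 of 6 had an unadjusted p under 0.05 in limma. Of all named genes 6.79% were lower at that p, and 19.9% had both KO arrays below both WT arrays. Mcm5 read 7.46 and 7.55 in WT against 7.15 and 6.98 in KO (change -0.44, SE 0.09, limma adjusted p = 0.0542). It is the subunit at the gate through which the ring is opened on DNA. Mcm6 read 8.08 and 8.11 in WT against 7.73 and 7.72 in KO (change -0.36, SE 0.08, limma adjusted p = 0.0624). Replicates differed by 0.03 or less there, and the genotypes were 1.29-fold apart.

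Mcm2, the other side of the gate and a carrier of parental histones, read 7.63 and 7.77 in WT against 7.25 and 7.46 in KO (change -0.34, SE 0.10, limma adjusted p = 0.161). Mcm7 read 8.01 and 8.005 in WT against 7.68 and 7.73 in KO (change -0.30, SE 0.08, limma adjusted p = 0.118). Mcm4 read 7.46 and 7.35 in WT against 7.09 and 7.13 in KO (change -0.30, SE 0.08, limma adjusted p = 0.149). The genotypes stayed apart in all 3, of which Mcm4 and Mcm7 form the catalytic core with Mcm6. Mcm3 read 7.11 and 7.02 in WT against 6.92 on both KO arrays (change -0.15, SE 0.08, limma adjusted p = 0.487), the smallest difference of the ring. With each array left out in turn Mcm5 ran from -0.35 to -0.52, Mcm2 from -0.23 to -0.45 and Mcm3 from -0.10 to -0.20. No sign could turn there, since both KO arrays lay below both WT arrays in all 6. Mcm5 passed 5% FDR alone after a second quantile normalization (limma adjusted p = 0.0437). With dim probe sets left out of the test it did so again (0.033), as did Mcm6 (0.0393). Neither passed when limma let the variance follow the level (adjusted p = 0.0503 for Mcm5 and 0.0586 for Mcm6). Nor did they with the replicate number as a block (0.0867 and 0.105) or with the mean of a gene's probe sets (0.131 and 0.0945).

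**Figure D2:**
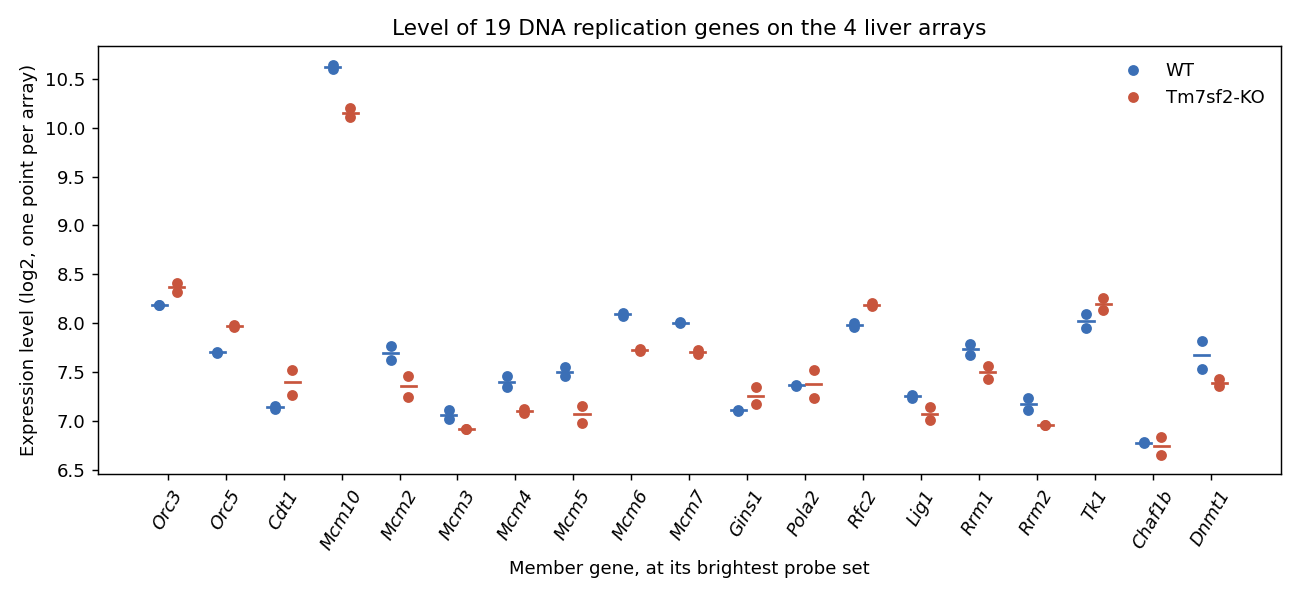
Log2 level (y axis) of 19 replication genes at their brightest probe set, 1 point per array and a bar at the mean of each genotype (WT blue, Tm7sf2-KO red). The KO points of Mcm10 and of all 6 helicase subunits sit below the WT points, whereas those of Orc3, Orc5, Cdt1, Gins1, Rfc2 and Tk1 sit above them.

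Further probe sets repeated these values in part. Of 14 probe sets against Mcm2 to Mcm7, 13 read lower in KO, 11 with the genotypes apart, and 9 had an unadjusted p under 0.05. Over all 33418 named probe sets the shares on the lower side were 49.2%, 20.6% and 7.07%. Probe sets of 1 gene share its transcript and are not independent. The second Mcm2 probe set gave -0.34 (limma adjusted p = 0.096), the second of Mcm4 -0.29 and the second of Mcm6 -0.32. For Mcm5 the others gave -0.25 (limma adjusted p = 0.216) and 0.00, and for Mcm3 they gave -0.10, -0.09 and 0.04. Mcm7 had 1 probe set only. Averaging the probe sets of each gene moved Mcm5 to -0.23 and Mcm3 to -0.08. The brightest Mcm5 probe set is of the type that shares probes with other sequences, and those of Mcm2 and Mcm3 are of the type that can read several genes.

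**Figure D3:**
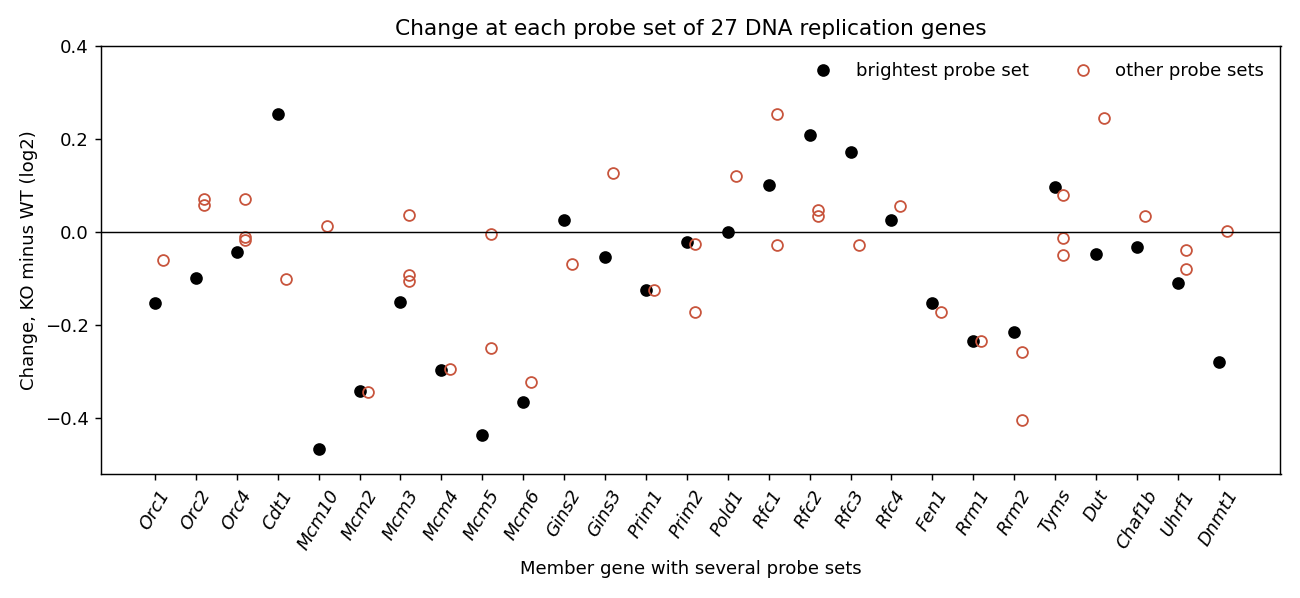
Change (y axis, KO minus WT, log2) at every probe set of the 27 replication genes that have several: filled points are the brightest probe set, open points the others. The probe sets of Mcm2, Mcm4, Mcm6, Rrm1 and Rrm2 lie together below 0, whereas those of Mcm10, Cdt1 and Dnmt1 lie apart.

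The E2F factors are known as regulators of these genes around the start of S phase. Their binding letters were looked up in the promoters after all helicase subunits had read lower in KO. Whether E2F activity differed between the genotypes was not tested. RefSeq windows (GRCm38.p6) of 250 bases before to 50 after a start site were matched by symbol for 33 of the 40 genes, in 43 windows. The letters TTTCCCGC, TTTGGCGC, TTTCGCGC or TTTGCCGC were searched on both strands, where matches of different forms can overlap. At least 1 window held them in 15 of 33 replication genes (45.5%), against 521 of 13602 named genes of the array (3.83%). Of the helicase genes Mcm3, Mcm5, Mcm6 and Mcm7 held them, Mcm2 did not, and Mcm4 had no match by symbol. The 3 windows of the ring with the largest changes among these, and that of Cdt1, which has the letters and read higher in KO, follow on the strand of the gene, 5′ to 3′, with the letters in capitals.

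Mcm5 (chr8:75109259-75109558, + strand): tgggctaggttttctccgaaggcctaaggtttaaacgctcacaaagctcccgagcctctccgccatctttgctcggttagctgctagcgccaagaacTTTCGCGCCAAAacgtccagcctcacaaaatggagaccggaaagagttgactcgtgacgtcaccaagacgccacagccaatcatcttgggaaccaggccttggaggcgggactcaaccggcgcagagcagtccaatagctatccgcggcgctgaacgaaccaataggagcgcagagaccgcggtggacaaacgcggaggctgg
Mcm6 (chr1:128359656-128359955, - strand): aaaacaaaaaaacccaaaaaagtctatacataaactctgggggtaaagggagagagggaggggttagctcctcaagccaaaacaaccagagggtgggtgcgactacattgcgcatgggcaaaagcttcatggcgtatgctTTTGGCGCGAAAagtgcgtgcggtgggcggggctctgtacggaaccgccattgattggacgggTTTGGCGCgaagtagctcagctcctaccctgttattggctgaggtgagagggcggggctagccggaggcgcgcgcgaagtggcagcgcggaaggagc
Mcm7 (chr5:138171834-138172133, - strand): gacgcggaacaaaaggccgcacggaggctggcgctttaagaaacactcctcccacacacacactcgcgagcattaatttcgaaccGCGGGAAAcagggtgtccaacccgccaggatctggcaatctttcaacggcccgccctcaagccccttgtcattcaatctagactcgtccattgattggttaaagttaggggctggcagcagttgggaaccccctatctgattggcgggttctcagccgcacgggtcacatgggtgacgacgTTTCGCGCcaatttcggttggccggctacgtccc
Cdt1 (chr8:122567765-122568064, + strand): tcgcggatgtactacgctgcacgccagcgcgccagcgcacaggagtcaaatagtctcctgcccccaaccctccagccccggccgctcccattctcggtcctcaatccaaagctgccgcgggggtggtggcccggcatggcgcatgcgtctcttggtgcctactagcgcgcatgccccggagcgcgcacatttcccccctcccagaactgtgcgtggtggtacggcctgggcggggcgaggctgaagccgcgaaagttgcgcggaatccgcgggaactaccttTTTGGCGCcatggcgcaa

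With the first transcribed base as 1, the capitals in Mcm5 are 2 overlapping matches that begin at -153 and -149. Mcm6 held 3 matches, an overlapping pair of which the first begins at -110, and another at -47. The Mcm7 window, 1 of 2 for that gene, held 1 match on each side of the start, at -165 and 17, and Cdt1 held 1 that begins at base 33. The box CCAAT, also searched on both strands, was in a window of 20 of 33 replication genes (60.6%) and of 42% of named genes. It was in all 5 helicase genes matched. The 15 genes with E2F letters had a median change of -0.11, with 11 lower and a range of -0.44 to 0.25. The 18 without them had a median of -0.04, with 12 lower and a range of -0.47 to 0.27. Mcm10 and Orc5 were at the ends of the second range. The Mcm10 window ends in TTTGGCG, a searched form without its last base, so its place in that set may depend on where the window stops. The difference between the sets was not tested.

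Around the loading step the genes went in different directions. Mcm10, which binds the helicase as it starts and bears no sequence kinship to the ring, read 10.64 and 10.60 in WT against 10.11 and 10.20 in KO. Its change of -0.47 (SE 0.08, limma adjusted p = 0.0289), with a 95% confidence interval from -0.65 to -0.29, was the only one past 5% FDR alone, and 1.38-fold lay just under the fold threshold. The second Mcm10 probe set read 6.30 and 6.23 in WT and 6.16 and 6.39 in KO (change 0.01, limma adjusted p = 0.972), so the difference rests on 1 probe set, and with the mean of both it was -0.23 (limma adjusted p = 0.202). The brighter probe set had the highest level of all 40 replication genes, whose median was 7.26. Whether it reads Mcm10 transcript alone was not tested. With any array left out the change was -0.42 to -0.51 and the adjusted p from limma 0.518 to 0.662, in fits where 1 genotype has a single array that is assumed to vary like the other genotype. With the replicate number as a block the change was again -0.47 and the adjusted p 0.0541. Cdt1, the loading factor that is destroyed once S phase begins, read 7.16 and 7.13 in WT against 7.27 and 7.52 in KO (change 0.25, SE 0.10, limma adjusted p = 0.297). Its other probe set gave -0.10. Cdc6, the ATPase of the loading step, was dim, at 6.20 and 6.11 in WT and 6.07 and 6.09 in KO, a change of -0.07.

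The origin recognition complex held the highest positive change. Orc5, an ATP-binding subunit, read 7.71 and 7.70 in WT against 7.99 and 7.96 in KO (change 0.27, SE 0.08, limma adjusted p = 0.168). Orc3 read 8.19 and 8.18 in WT against 8.42 and 8.32 in KO (change 0.18, SE 0.08, limma adjusted p = 0.375). In both the KO arrays lay above the WT arrays, and each gene has 1 probe set. The other 4 subunits had changes of -0.04 to -0.15, and only Orc6 had its genotypes apart. Orc1, the subunit that comes and goes with the cell cycle, read 7.14 and 6.55 on the KO arrays, the widest gap between replicates of any replication gene.

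The activators of the helicase differed little. The changes of the 4 GINS genes and Cdc45 lay between -0.05 and 0.15, and the highest was Gins1, at 7.10 and 7.12 in WT against 7.18 and 7.35 in KO (change 0.15, SE 0.09, limma adjusted p = 0.517). Gins4 read 7.89 and 7.88 in WT and 7.85 and 7.82 in KO, a change of -0.05 whose interval ran from -0.22 to 0.13. The polymerase and primase genes lay between -0.13 and 0.01. Prim1, which encodes the catalytic subunit of primase, had the lowest change (-0.13), and its genotypes did not overlap. Pola2, the second subunit of polymerase alpha, read 7.36 and 7.37 in WT against 7.24 and 7.52 in KO (change 0.01, SE 0.10, limma adjusted p = 0.974). Its sign turned with 1 KO array left out. Pold1 and Pole, the catalytic subunits of the lagging and leading strand polymerases, had changes of 0.00 and -0.09. The WT means of Gins2, Gins3, Cdc45, Pola1, Prim2, Pold1 and Pole lay from 6.69 to 6.85, close to the median of all probe sets (6.66). Detection was not shown at such levels, so a small change there does not show equal expression.

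Behind the fork none of the 6 clamp loader and joining genes passed 5% FDR, and Rfc2 alone had an unadjusted p under 0.05 in limma. Rfc2 read 8.005 and 7.96 in WT against 8.18 and 8.20 in KO (change 0.21, SE 0.08, limma adjusted p = 0.289). Rfc1, Rfc3 and Rfc4, its partners in opening the clamp, had changes of 0.10, 0.17 and 0.02. The 2 other Rfc2 probe sets gave 0.04 and 0.05, those of Rfc1 gave -0.03 and 0.25, and the second ones of Rfc3 and Rfc4 gave -0.03 and 0.06. Lig1, the ligase that seals Okazaki fragments, read 7.23 and 7.27 in WT against 7.14 and 7.01 in KO (change -0.18, SE 0.08, limma adjusted p = 0.417). Fen1, which trims their flaps, had -0.15 and -0.17 at its 2 probe sets, with the genotypes apart at both.

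In nucleotide supply the ribonucleotide reductase subunits read lower and thymidine kinase higher. Rrm1, the large subunit, read 7.68 and 7.78 in WT against 7.56 and 7.43 in KO (change -0.23, SE 0.09, limma adjusted p = 0.28), and its other probe set gave -0.23 as well. Rrm2, the S phase subunit, read 7.11 and 7.24 in WT against 6.96 on both KO arrays (change -0.22, SE 0.08, limma adjusted p = 0.299). Its 2 other probe sets gave -0.40 (limma adjusted p = 0.0847) and -0.26, so all 5 probe sets of the enzyme read lower. Tk1, of the thymidine salvage route, read 8.10 and 7.95 in WT against 8.26 and 8.13 in KO (change 0.17, SE 0.09, limma adjusted p = 0.471). Tyms, which makes thymidylate, and Dut, which clears dUTP, had overlapping genotypes with changes of 0.10 and -0.05.

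Of the genes that copy chromatin, Dnmt1, the maintenance DNA methyltransferase, read 7.82 and 7.53 in WT against 7.36 and 7.43 in KO (change -0.28, SE 0.10, limma adjusted p = 0.283). The WT arrays were 0.29 apart, and the other probe set gave 0.00. Without WT replicate 1 the change was -0.14 and without WT replicate 2 it was -0.42. Uhrf1, which guides Dnmt1 to newly copied DNA, was dim and had a change of -0.11, with -0.04 and -0.08 at its other probe sets. Chaf1b, of the histone chaperone that follows the clamp, read 6.78 and 6.79 in WT against 6.66 and 6.84 in KO (change -0.03, SE 0.09, limma adjusted p = 0.924).

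Other genes of the replication machinery were looked up in a list chosen by role, with Pold2, Rpa1, Dbf4, Timeless and Hells among them. None of the 46 passed both thresholds in limma, 4 were lower and 1 higher at an unadjusted p under 0.05 (6.79% and 8.39% of all named genes), and the median change was -0.02. The lowest of these was Top2a, the topoisomerase that separates finished copies, and it passed 5% FDR alone (change -0.41, limma adjusted p = 0.0388). After it came Ung, which removes uracil from DNA (-0.36, limma adjusted p = 0.0767). Of 13 E2F, Dp and Rb family genes none passed 5% FDR. By limma 3 were lower and 0 higher at an unadjusted p under 0.05 (6.79% and 8.39% of all named genes). The lowest was E2f4 (-0.32, limma adjusted p = 0.155).

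Proliferation markers, which mostly act in mitosis, were lower by more than the replication genes. Of 12 such markers, a list that also holds Top2a, 5 fell and none rose past both thresholds, against 0.487% and 0.543% of all named genes, all 12 had a mean below WT, and the median was -0.48. Besides Cdc20 (-1.02), Mki67 (-0.83) and Kif20a (-0.65), Ccnb1 fell from 7.24 and 7.29 to 6.66 on both KO arrays (change -0.61, SE 0.08, limma adjusted p = 0.00696). Ccnb2, likewise a mitotic cyclin, fell from 7.26 and 7.09 to 6.56 and 6.76 (change -0.51, SE 0.10, limma adjusted p = 0.0429). Ccna2, the cyclin of S phase and of entry into mitosis, had a change of -0.49 (limma adjusted p = 0.0248) and thus passed 5% FDR alone. In the plot of cumulative shares the helicase subunits lie between these markers and the other replication genes. The difference between the lists was not tested. The markers were chosen with earlier results of these data known, so their count beside the share of all named genes is a description only.

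**Figure D4:**
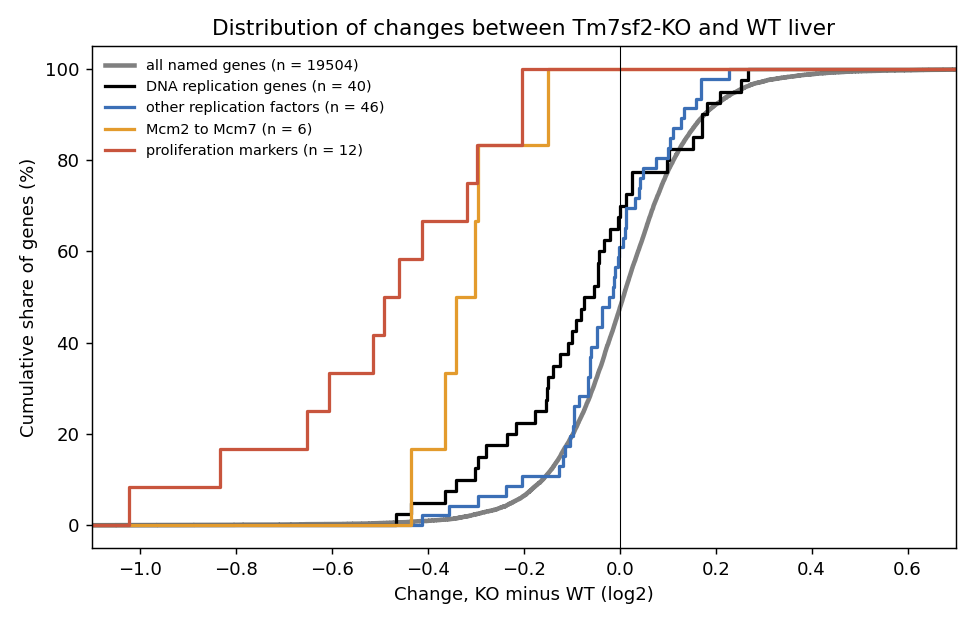
Cumulative share of genes (y axis, %) against their change (x axis, KO minus WT, log2) for all 19504 named genes, the 40 replication genes, 46 other replication factors, Mcm2 to Mcm7 and 12 proliferation markers. The medians are 0.01, -0.06, -0.02, -0.32 and -0.48.

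Markers of blood and other liver cells moved both ways within most lists, and their part in the helicase values was not tested. The mean level of 10 lymphoid markers was 6.77 and 6.75 on the WT arrays and 6.79 and 6.80 on the KO arrays, and that of 6 markers of haematopoietic progenitors was 6.72 and 6.76 against 6.80 and 6.73. The 7 erythroid markers found averaged 7.34 and 7.36 against 7.36 and 7.34, although Tfrc fell (-0.54) and the erythroid factor Klf1 read higher (0.47). The 8 neutrophil markers averaged 6.98 and 7.03 against 6.94 on both KO arrays, but they went both ways. S100a8 fell (-0.67), S100a9 had a change of -0.28 (limma adjusted p = 0.164) and Lcn2 one of 0.41 (limma adjusted p = 0.0866). The median changes of the Kupffer, endothelial, stellate and biliary lists lay between -0.06 and 0.09, with no call, and all 6 stellate markers had a mean above WT. As a sign of RNA quality, the excess of 3' over 5' signal at control probe sets was 0.98 and 0.94 in WT against 1.24 and 1.05 in KO for Actb, and 0.10 and 0.07 against 0.23 and 0.19 for Gapdh, a gap that widens with broken or partly copied RNA. Its part in the lower helicase values was not tested.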

How the data were processed

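Liver RNA of 2 WT and 2 Tm7sf2-KO male mice was measured on 1-colour arrays; the labels gave each array's genotype and replicate number. The authors deposited log2 values, quantile normalized per the study's methods. Affy and limma, without versions, are the tools in the submitters' processing notes, while how background was corrected and probes summarised is not given in the sources. The deposited comparison table also holds the authors' log2 ratio of KO over WT and its adjusted p-value, and neither was used. That table gave gene names and chromosomes only. The 64 control probe sets were left out and 45037 were tested with limma 3.58.1 in R 4.3.3 (lmFit, eBayes, two-sided, no covariate, 2 residual degrees of freedom), with Benjamini-Hochberg adjustment over all of them. The fit was tested on simulated data. An exact permutation test was not used for single genes, since 2 against 2 arrays cannot reach the threshold. The members, the lists by role and the marker lists were chosen with earlier results of these data known. Members past 5% FDR, those with the next smallest adjusted p up to 16, and the highest change of each role group are given array by array. Alternatives were a second quantile normalization, centring on 40 added control probe sets, a variance trend, a filter on dim probe sets, the mean of a gene's probe sets, the replicate block and leaving out each array. Arrays give no counts, so their number limits the precision. No genome build is stated in the sources read, and promoter coordinates are those of the RefSeq windows.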

Additional observations from a re-analysis of the deposited data

How the results depend on the processing

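No member passed both thresholds, in either direction, under a second quantile normalization, a variance trend, the filter on dim probe sets, the mean of a gene's probe sets, the replicate block or the loss of any array. Centring on added control transcripts gave 15 members lower and 0 higher past both thresholds, 35 past 5% FDR alone, 7 other replication factors past both thresholds and a member median of -0.45, because it shifts all genes by -0.38. That shift exceeds every positive member change, so all 40 members then lie below 0. The share of all named genes called under this centring was not counted, so nothing particular to the members can be read from these counts. Among the genes given array by array the values that turned were Orc5 (-0.12), Rfc2 (-0.17), Cdt1 (-0.13), Orc3 (-0.20), Tk1 (-0.21), Gins1 (-0.23) and Pola2 (-0.37). Past 5% FDR alone there were 2 members after a second quantile normalization (Mcm10 and Mcm5), 3 with the filter on dim probe sets, which tests fewer probe sets (Mcm10, Mcm5 and Mcm6), and 0 with the mean of a gene's probe sets. With 1 array left out, where the lone array of a genotype is assumed to vary like the other genotype, there were 0 in every case, and 7 to 11 members then had an unadjusted p under 0.05. The member median ran from -0.04 to -0.09 over those fits. Signs near 0 turned elsewhere in Chaf1b, at 0.0587 without Tm7sf2-KO replicate 1 and 0.00115 with the mean of its probe sets, and Pola2, which ran from -0.13 (without Tm7sf2-KO replicate 2) to 0.154 (when the other KO array was dropped). With the replicate number as a block 0 members passed 5% FDR alone, Mcm10 having an adjusted p of 0.0541, and 12 had an unadjusted p under 0.05. Same-numbered arrays correlated at -0.04 in their deviations from the group means, which does not settle whether the numbers mark pairs.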
